A study of Mus musculus with 12 samples.

Results

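The 10 genes described here, Ankrd1, Csrp3, Fhl1, Nrap, Synpo2l, Xirp1, Xirp2, Flnc, Ldb3 and Des, encode proteins of the cardiac Z-disc and of the filaments attached to it and were taken as a list of names, with earlier results of these data known. They were found in the deposited table by NCBI Gene identifier, as 10 of its 18079 genes, and all 10 passed the filter on low values that left 11664 genes for testing. The Z-disc borders the sarcomere, the contractile unit of striated muscle. Alpha-actinin anchors the thin filaments there, titin spans from it towards the middle of the sarcomere, and desmin filaments tie neighbouring myofibrils together at its edge. Several Z-disc proteins also sit at the costamere, the link of the myofibril to the cell membrane, or can move to the nucleus, and some of their genes are known for a rise in the pressure-overloaded heart.

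RNA was sequenced from the left ventricle of male C57BL/6 mice without a described genetic change, operated at 8 weeks of age and killed 4 weeks later, at 12 weeks of age. Aortic banding (AB) of the descending aorta, which raises the load on the left ventricle, was compared with sham surgery. Hispidulin, a plant flavone, was injected intraperitoneally at 20 mg/kg once daily, starting 1 day before surgery, and DMSO served as the vehicle. Each of the 4 groups held 3 mice with 1 library each, named DMSO+Sham and Hispidulin+Sham without banding and DMSO+AB and Hispidulin+AB with it, and the comparisons ask what banding changes with either injection and whether hispidulin alters it. Levels are FPKM, fragments scaled to transcript length and to the library's mapped fragments, so that they can be compared between genes, but they do not carry the read depth, which is unknown here.

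Libraries of the same group correlated over the tested genes by Spearman coefficients of 0.944 to 0.989, and no pair held identical values. In DMSO+AB against DMSO+Sham, 3 of the 4 genes read as a check of banding passed the test, Nppa, Nppb and Acta1, and Myh7 did not (log2 fold change 1.55, adjusted p = 0.182, limma). The 8 cardiomyocyte markers summed to 38792 to 56358 FPKM, with the lowest value in DMSO+Sham 3. Skeletal muscle markers were close to 0 in every library, with sums of 2.05 to 5.76 FPKM over 8 genes, Myh1, Myh2 and Myh4 included. Atrial markers (Myl7, Myl4 and Sln) were high in 3 libraries, with a sum of 774 FPKM in Hispidulin+Sham 3, of 172 in DMSO+AB 2 and of 91 in Hispidulin+AB 3, and summed to 2.53 to 40.0 in the other 9. Hispidulin+Sham 3 also had the highest sum of red blood cell markers, 7574 FPKM against 1690 to 3819 elsewhere.

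Promoter sequences were read from RefSeq for 9 of the 10 genes (not Xirp1), as the 250 bases before each transcription start on GRCm38.p6, 14 windows in all. They were searched on both strands for the MCAT element, CATTCC, which TEAD factors bind, for the CArG box of serum response factor and for the MEF2 box. The windows of the 4 genes with the largest change under AB among those that passed the test are shown, read 5′ to 3′ along the gene, with the matches in capitals: Ankrd1 at chr19:36119845-36120094 on the minus strand, Fhl1 at chrX:56779433-56779682 on the plus strand, Synpo2l at chr14:20668355-20668604 on the minus strand and Xirp2 at chr2:67445752-67446001 on the plus strand.
Ankrd1: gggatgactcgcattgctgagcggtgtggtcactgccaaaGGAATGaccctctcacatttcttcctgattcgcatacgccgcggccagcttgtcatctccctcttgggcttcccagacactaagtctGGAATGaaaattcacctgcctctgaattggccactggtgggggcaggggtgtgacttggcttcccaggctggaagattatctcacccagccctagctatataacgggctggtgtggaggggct
Fhl1: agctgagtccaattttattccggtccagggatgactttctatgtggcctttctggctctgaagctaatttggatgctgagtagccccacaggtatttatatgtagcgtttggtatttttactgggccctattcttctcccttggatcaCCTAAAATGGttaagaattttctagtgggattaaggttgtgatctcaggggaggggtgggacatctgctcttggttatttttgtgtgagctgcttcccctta
Synpo2l: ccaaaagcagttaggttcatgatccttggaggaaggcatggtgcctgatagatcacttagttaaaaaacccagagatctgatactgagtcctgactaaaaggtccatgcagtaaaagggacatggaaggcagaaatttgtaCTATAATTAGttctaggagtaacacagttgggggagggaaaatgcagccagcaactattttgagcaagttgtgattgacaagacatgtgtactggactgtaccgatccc
Xirp2: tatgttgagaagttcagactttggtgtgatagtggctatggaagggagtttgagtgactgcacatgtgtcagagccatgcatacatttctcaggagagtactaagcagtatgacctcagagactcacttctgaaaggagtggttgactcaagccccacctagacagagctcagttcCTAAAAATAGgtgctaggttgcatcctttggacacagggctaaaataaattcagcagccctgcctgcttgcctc
The Ankrd1 window held MCAT 2 times, both on the opposite strand, beginning 210 and 123 bases before the start. A MEF2 box was found in 2 of the 9 genes, Synpo2l and Xirp2. It began 109 bases before the start in the Synpo2l window shown and 74 bases before the start in the Xirp2 window. The other Synpo2l window held one as well. The box was thus in 3 of the 14 windows, against 2.92% of all 32851 windows of this length in the RefSeq table and 1.74% of the 11982 windows of tested genes. A CArG box lay in the Fhl1 window, 102 bases before the start, and at 1 site of Ldb3, the gene that changed least, which both of its overlapping windows contain. These are 2 of the 9 genes and 3 of the 14 windows, against 1.47% of all windows and 1.22% of those of tested genes, and the other Fhl1 window held no match. MCAT was in 2 of the 14 windows, that of Ankrd1 and 1 of Flnc, against 12.6% of all windows and 10.8% of those of tested genes. No match overlapped one of another motif, and Csrp3, Nrap and Des had none of the 3 motifs in their windows. Whether a motif bears on the change of its gene under AB was not tested.

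With DMSO, AB raised 7 of the 10 genes, and all 10 had a log2 fold change above 0, as did 44.2% of all tested genes. Over all tested genes 5.21% passed the test in either direction, and 2.50% passed as higher. Synpo2l, Xirp2, Ankrd1 and Fhl1 rose by 3.29 to 4.53 times, whereas Nrap, Csrp3 and Des rose by 1.51 to 1.79 times. Flnc, Xirp1 and Ldb3 did not pass, although Flnc and Xirp1 had mean folds of 3.10 and 2.72. The median log2 fold change was 1.54 over the 10 genes and -0.04 over all tested genes, and the 3 DMSO+AB mice lay above the 3 DMSO+Sham mice for 9 of the 10, which was the case for 7.18% of all tested genes.

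**Figure D1:**
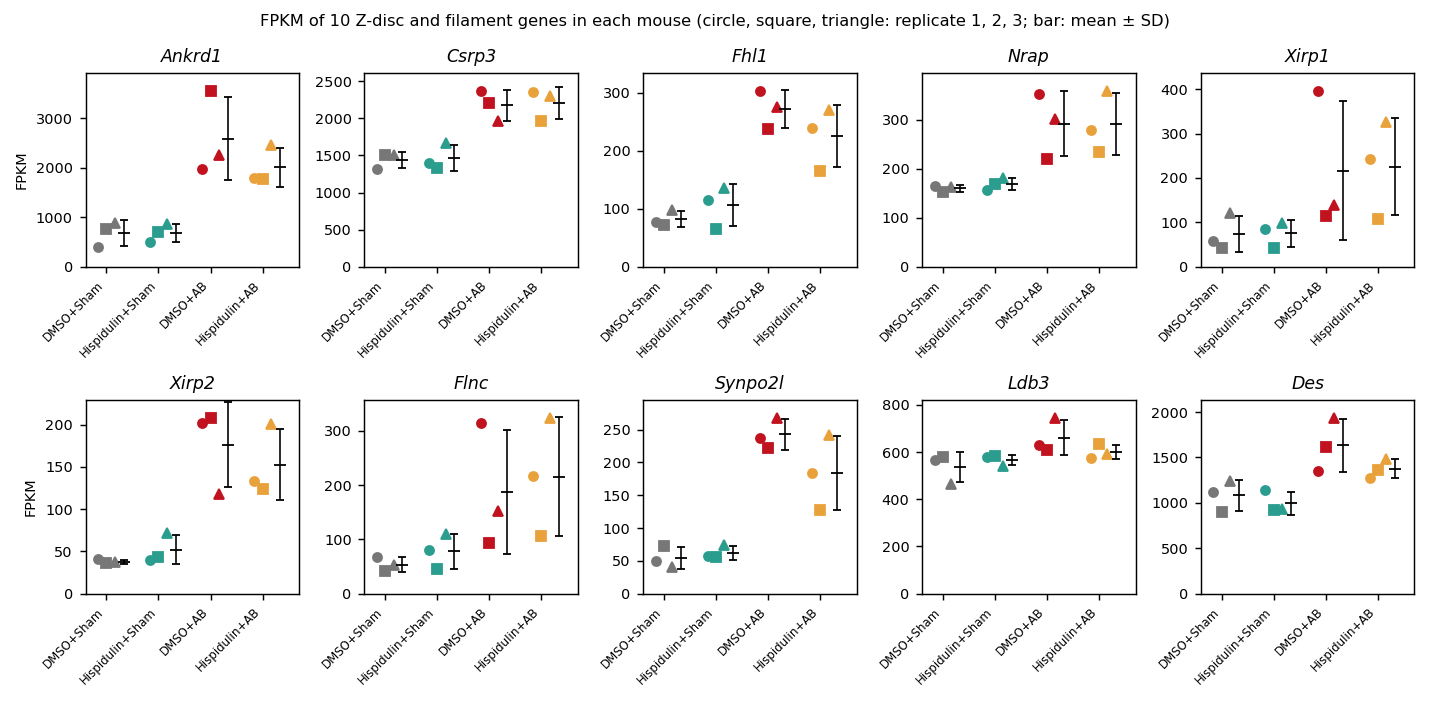
FPKM (linear axes from 0) of each of the 10 genes in each of the 12 mice, by group. Circles, squares and triangles are replicates 1, 2 and 3, and the bar beside them is the mean ± SD of 3 mice. Synpo2l lies between 127 and 268 FPKM in the AB mice and between 40.6 and 74.9 FPKM in the sham mice, whereas Ldb3 spans 465 to 745 FPKM with AB and sham mice overlapping over both injections.

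Among the genes whose products can signal to the nucleus, Ankrd1 (NCBI Gene 107765), a muscle ankyrin repeat protein that binds titin and acts as a transcriptional cofactor, was at 392, 760.0 and 888 FPKM in the 3 DMSO+Sham mice and at 1969, 3558 and 2251 FPKM in the 3 DMSO+AB mice. The lowest banded mouse was above the highest sham mouse by a wide gap. The log2 fold change was 1.96 (SE 0.31, adjusted p = 0.00895, limma), and Ankrd1 moved from place 118 to place 21 of the 11664 tested genes by mean FPKM.

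Fhl1 (NCBI Gene 14199), a protein of LIM domains that binds titin at the I-band, was at 77.6, 71.6 and 97.3 FPKM in DMSO+Sham and at 303, 237 and 275 FPKM in DMSO+AB. The groups did not overlap, and the banded mice lay close together (log2 fold change 1.72, SE 0.25, adjusted p = 0.00613). Csrp3 (NCBI Gene 13009) encodes muscle LIM protein, which binds alpha-actinin and telethonin at the Z-disc. Its level was 1313, 1503 and 1502 FPKM in DMSO+Sham and 2372, 2204 and 1959.7 FPKM in DMSO+AB. Csrp3 thus started from a high level and rose little, with a narrow spread in both groups (log2 fold change 0.60, SE 0.12, adjusted p = 0.0177).

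Nrap (NCBI Gene 18175), a scaffold of myofibril assembly that binds actin and, at the cell's ends, talin and vinculin, was at 165, 152 and 163 FPKM in DMSO+Sham and at 353, 221 and 302 FPKM in DMSO+AB. The sham mice hardly differed from one another, and every banded mouse was higher (log2 fold change 0.84, SE 0.17, adjusted p = 0.0215). Synpo2l (NCBI Gene 68760), an actin-associated protein of the Z-disc that is also called CHAP, was at 49.7, 72.2 and 40.6 FPKM in DMSO+Sham. In DMSO+AB it was at 237, 222 and 268 FPKM, the largest change of the 10 genes (log2 fold change 2.18, SE 0.24, adjusted p = 0.00320). Its banded mice varied little, by a coefficient of variation of 9.60%.

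The Xin proteins bind and protect actin filaments and gather at sites of myofibril damage and at intercalated discs, and filamin C cross-links actin and binds Xin. Xirp2 (NCBI Gene 241431) was at 40.6, 36.2 and 36.9 FPKM in DMSO+Sham and at 202, 208 and 118 FPKM in DMSO+AB (log2 fold change 2.14, SE 0.26, adjusted p = 0.00376). Its sham mice hardly differed from one another, and each banded mouse was far above them. Xirp1 (NCBI Gene 22437) was at 57.8, 43.2 and 121 FPKM in DMSO+Sham and at 396, 114 and 138 FPKM in DMSO+AB. DMSO+Sham 3 exceeded DMSO+AB 2, so that the groups overlapped, and DMSO+AB 1 was far above the other banded mice (log2 fold change 1.44, SE 0.54, adjusted p = 0.158).

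Flnc (NCBI Gene 68794) was at 67.3, 40.9 and 53.0 FPKM in DMSO+Sham and at 315, 93.3 and 153 FPKM in DMSO+AB. The groups did not overlap, but DMSO+AB 1 stood above the other banded mice as it did for Xirp1, and the log2 fold change of 1.63 (SE 0.48) did not pass (adjusted p = 0.0714). The coefficient of variation among the 3 DMSO+AB mice was 72.5% for Xirp1 and 61.3% for Flnc, against 9.52% to 32.7% for the other 8 genes.

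Of the structural anchors, Des (NCBI Gene 13346), which encodes desmin, the intermediate filament of muscle, was at 1115, 899 and 1239 FPKM in DMSO+Sham and at 1356, 1617 and 1937 FPKM in DMSO+AB. Every banded mouse was above every sham mouse, the nearest pair being 1356 and 1239 FPKM (log2 fold change 0.59, SE 0.15, adjusted p = 0.0451). Ldb3 (NCBI Gene 24131), the PDZ-LIM protein also called ZASP or Cypher, which binds alpha-actinin, was at 567, 578 and 465 FPKM in DMSO+Sham and at 629, 609 and 745 FPKM in DMSO+AB. The groups did not overlap, but the log2 fold change was 0.30 (SE 0.11) and did not pass (adjusted p = 0.132).

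The calls of Synpo2l, Xirp2 and Fhl1 were made under all 18 alternatives tried for this comparison, and Ldb3 passed under none. Of these, 1 was a different contrast, AB against sham averaged over both injections, which also uses the hispidulin mice. Ankrd1 passed under 16, Nrap under 14, Csrp3 under 13 and Des under 8, each with the averaged contrast included. Over all tested genes 608 passed. With the 6 libraries of this comparison alone, 3 of the 10 genes passed among 11 in all, and without DMSO+Sham 1, 4 passed among 91. Without the 3 libraries of high atrial marker sums, 4 passed (Fhl1, Nrap, Synpo2l and Xirp2) among 20, while all 10 remained above 0. Sample descriptions begin with X1 or with a number of an X5 or X6 series, whose meaning is not given. Within X5 (1 mouse against 1) and within X6 (2 against 1) all 10 genes were higher with AB, and 4 passed with the series as a covariate, among 142 genes in all.

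Markers of other cells moved in the same comparison. Over all tested genes 2.50% were called higher and 5.21% in either direction. Fibroblast markers (6 genes) summed to 330 to 395 FPKM in DMSO+Sham and to 351 to 701 FPKM in DMSO+AB, and 2 of the 6, Col1a1 and Col1a2, rose. Cardiomyocyte markers summed to 38792 to 56358 FPKM in DMSO+Sham and to 45813 to 50785 FPKM in DMSO+AB, and 2 of 8, Ryr2 and Pln, fell. In all, 6 of the 8 had a log2 fold change below 0 and 2 above it, without a call. Of these 2, Actc1 was at 7909, 10201 and 2741 FPKM in DMSO+Sham and at 10207, 9555 and 11562 FPKM in DMSO+AB. Of the 2 skeletal muscle markers that could be tested, 1 fell, Tnni2 (log2 fold change -0.89, adjusted p = 0.0269), with means of 1.03 FPKM in DMSO+AB and 2.80 FPKM in DMSO+Sham. No smooth muscle, endothelial, macrophage, red blood cell or atrial marker passed the test. Their part in the levels of the 10 genes was not tested, and in whole ventricle a change in the number of cells of a type cannot be told apart from a change of RNA per cell.

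**Figure D2:**
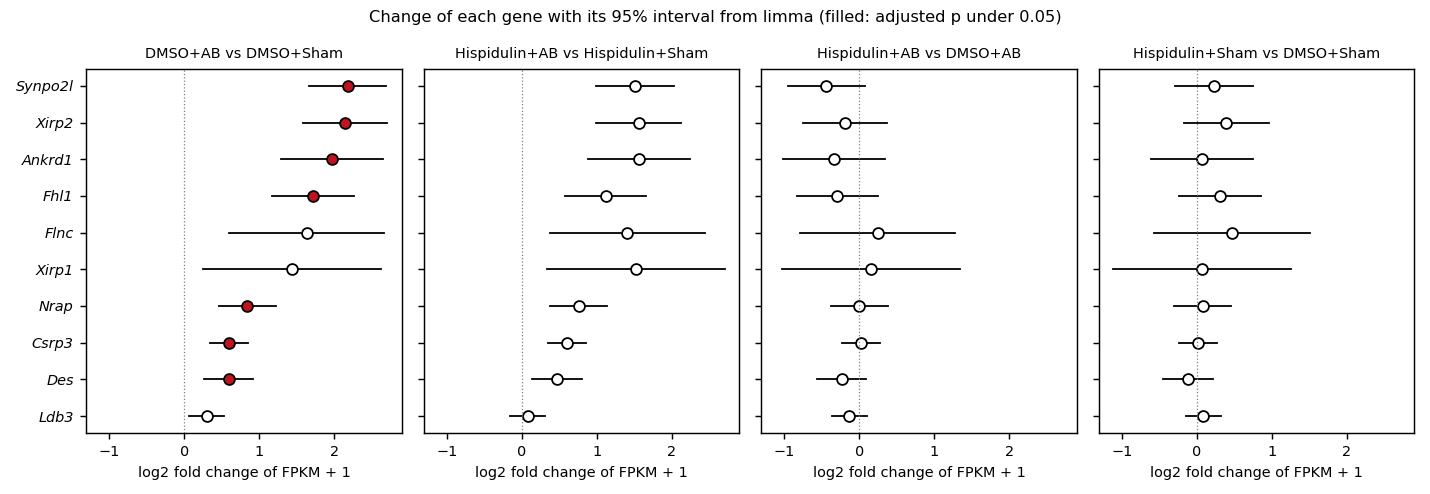
Log2 fold change of FPKM + 1 for each gene in 4 comparisons, as estimated with limma over 12 libraries. Points are estimates, lines their 95% intervals, and filled points have an adjusted p under 0.05. Filled points occur in DMSO+AB against DMSO+Sham, where 7 of 10 are filled, and all intervals include 0 in both comparisons of hispidulin with DMSO.

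With hispidulin, all 10 genes were again higher after AB, by log2 fold changes of 0.08 for Ldb3 to 1.56 for Ankrd1, as were 45.1% of all tested genes. None of the 10 passed, and the share over all tested genes was 0%. At an unadjusted p under 0.05, 9 of the 10 passed against 7.26% of all tested genes, the exception being Ldb3. The 3 Hispidulin+AB mice lay above the 3 Hispidulin+Sham mice for 8 of 10 genes, against 9.14% of all tested genes. The median log2 fold change was 1.26 over the 10 genes and -0.02 over all tested genes.

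Ankrd1 was at 496, 712 and 859.7 FPKM in Hispidulin+Sham and at 1790.4, 1778 and 2464 FPKM in Hispidulin+AB, without overlap (adjusted p = 0.190, limma). Synpo2l was at 57.4, 55.2 and 74.9 FPKM and, after AB, at 183, 127 and 241 FPKM (log2 fold change 1.51, SE 0.24, adjusted p = 0.102). Its 3 banded mice were spread more widely than the 3 of DMSO+AB, but each was above all sham mice. Xirp2 was at 40.2, 43.5 and 71.5 FPKM and, after AB, at 133, 124 and 201 FPKM, also without overlap (log2 fold change 1.56, SE 0.26, adjusted p = 0.102).

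Fhl1 was at 115, 65.8 and 136 FPKM in Hispidulin+Sham and at 239, 166 and 269 FPKM in Hispidulin+AB. The mean difference was smaller than with DMSO, and the groups did not overlap (log2 fold change 1.12, SE 0.25). Csrp3 was at 1399, 1327 and 1662 FPKM and, after AB, at 2362, 1967 and 2303 FPKM, a log2 fold change of 0.60 beside 0.60 with DMSO. For Nrap the sham mice were at 156, 169.7 and 182 FPKM and the banded mice at 279, 234 and 359 FPKM, again without overlap.

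Xirp1 was at 85.0, 41.7 and 99.0 FPKM in Hispidulin+Sham and at 242, 108 and 327 FPKM in Hispidulin+AB, where the groups were apart, unlike with DMSO. Flnc was at 80.3, 44.6 and 109 FPKM and, after AB, at 217, 106 and 324 FPKM, and here the highest sham mouse, Hispidulin+Sham 3, was just above the lowest banded mouse. In both genes Hispidulin+AB 2 was far below the other banded mice. Des was at 1143, 918 and 927 FPKM and, after AB, at 1277, 1363 and 1488 FPKM, without overlap (log2 fold change 0.47, SE 0.15). Ldb3 was at 578, 582 and 543 FPKM and, after AB, at 576, 635 and 591 FPKM, and the groups overlapped.

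Hispidulin+Sham 3, the library with high atrial and red blood cell markers, was the highest sham mouse with hispidulin for 8 of the 10 genes, with Xirp2 at 71.5 FPKM against 40.2 and 43.5 in the other sham mice. Without it the median log2 fold change of the 10 genes was 1.49, and 0 of 10 passed, and without all 3 libraries of high atrial marker sums the median was 1.26, all 10 genes were above 0 and again 0 passed. Mice with the same number deviated together in these groups, and with the replicate number as a block 2 of 10 genes passed, Ankrd1 and Fhl1 (both adjusted p = 0.0356, limma), and 17 genes in all. With the 6 libraries alone 3 of 10 passed (Ankrd1, Synpo2l and Xirp2) among 49 genes in all, and with library weights 6 passed among 209. All 10 genes were higher with AB within X5 (1 mouse against 2) and within X6 (2 against 1, the sham mouse being Hispidulin+Sham 3). The log2 difference was smaller in X6 for all but Ldb3, with 0.47 against 2.42 for Flnc and 0.54 against 1.62 for Fhl1.

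Over both injections, the lowest of the 6 AB mice was above the highest of the 6 sham mice for 7 of the 10 genes (Ankrd1, Csrp3, Des, Fhl1, Nrap, Synpo2l and Xirp2), which held for 2.15% of all tested genes. For Ankrd1 the lowest AB mouse was at 1778 FPKM and the highest sham mouse at 888 FPKM. For Des the same values were 1277 and 1239 FPKM, close to each other. The AB groups were then compared with the sham groups as an average over both injections, a contrast chosen after the values were seen. There 9 of the 10 genes passed, all higher, beside 7.39% of all tested genes in either direction and 3.52% higher. Xirp1 (log2 fold change 1.48, SE 0.39, adjusted p = 0.0381) and Flnc (log2 fold change 1.52, SE 0.34, adjusted p = 0.0204) passed in this contrast, whereas Ldb3 did not (0.19, SE 0.08, adjusted p = 0.152).

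**Figure D3:**
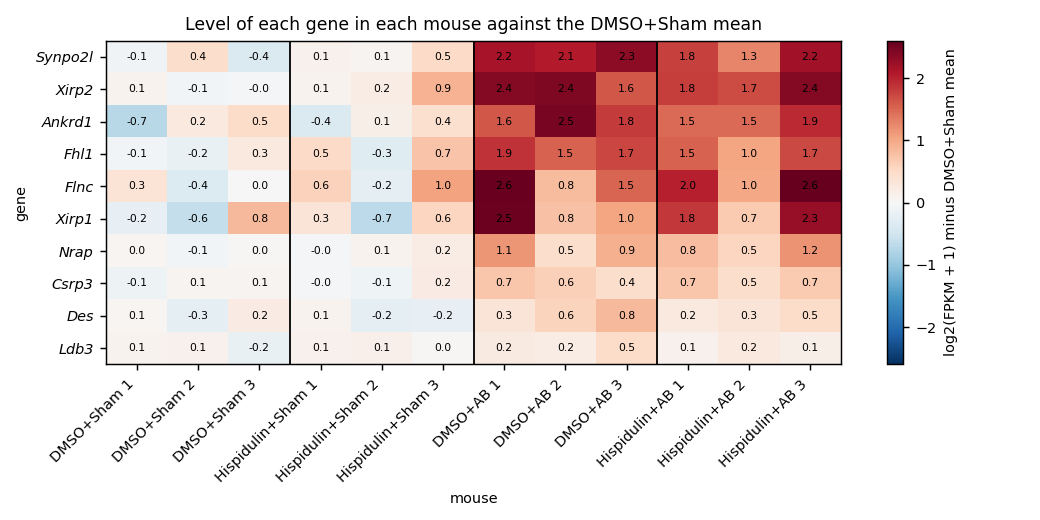
Log2(FPKM + 1) of each gene (rows) in each of the 12 mice (columns) minus the DMSO+Sham mean of that gene, red for higher and blue for lower, with the values printed. All 6 AB columns are red for the genes at the top, Synpo2l, Xirp2, Ankrd1 and Fhl1, and the Ldb3 row at the bottom stays pale throughout.

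Hispidulin did not detectably change any of the 10 genes in banded hearts. In Hispidulin+AB against DMSO+AB 0 of 10 passed, with 0 at an unadjusted p under 0.05, beside 0% and 3.10% of all tested genes, and the groups overlapped for all 10, while 7.88% of all tested genes did not overlap. The log2 fold change was below 0 for 7 genes, beside 48.6% of all tested genes, and above 0 for Xirp1, Flnc and Csrp3. Without the 3 libraries of high atrial marker sums it was below 0 for all 10 genes (Csrp3 at -0.0003), beside 43.9% of all tested genes, with a median of -0.32 in place of -0.16, and none of the 10 passed (smallest adjusted p = 0.9989). This leaves fewer mice in both groups. It removes Hispidulin+AB 3, the highest Hispidulin+AB mouse for all of the 10 genes but Csrp3 and Ldb3. It also removes DMSO+AB 2, the lowest DMSO+AB mouse for Xirp1, Flnc, Fhl1, Nrap, Ldb3 and Synpo2l and the highest for Ankrd1 and Xirp2. The shift thus follows in part from which libraries were left out. With 1 library left out at a time the median was -0.24 to -0.0755. The largest difference was that of Synpo2l, at 184 ± 57.0 FPKM (SD, n = 3) in Hispidulin+AB and 243 ± 23.3 in DMSO+AB, a log2 fold change of -0.44 with a 95% interval of -0.96 to 0.08. Ankrd1 was at 2011 ± 393 FPKM in Hispidulin+AB and at 2592 ± 848 FPKM in DMSO+AB (-0.34, interval -1.01 to 0.34). In DMSO+AB its mean was carried by 1 mouse, DMSO+AB 2 at 3558 FPKM, a library with high atrial markers.

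The intervals of this comparison differed in width between the genes. For Csrp3 the log2 difference lay within -0.23 to 0.27, for Nrap within -0.38 to 0.38, for Ldb3 within -0.37 to 0.10 and for Des within -0.57 to 0.09. For Fhl1 it lay within -0.84 to 0.25 and for Xirp2 within -0.75 to 0.37. For Xirp1 and Flnc the intervals were -1.04 to 1.34 and -0.79 to 1.28, the widest of the 10. The differences depended on single libraries in both directions. Without Hispidulin+AB 2 alone the log2 difference was -0.20 for Synpo2l (SE 0.22), -0.0905 for Fhl1 and 0.14 for Nrap, and without DMSO+AB 2 alone it was -0.0833 for Ankrd1. Without the 3 libraries of high atrial marker sums it was -0.72 for Synpo2l (SE 0.26), -0.53 for Fhl1 (SE 0.27) and -0.35 for Nrap (SE 0.13). The directions of Xirp1 and Flnc turned there, with a log2 difference of -0.53 for both, and Csrp3 was at -0.0003. The number series of the sample descriptions differed as well. Within X6 (2 mice against 2) all 10 genes were lower with hispidulin, from -0.67 for Xirp2 to -0.03 for Ldb3. Within X5 (1 against 1) Xirp1 (1.24), Flnc (1.08), Xirp2 (0.76), Ankrd1, Csrp3 and Nrap were higher, and Fhl1, Des, Ldb3 and Synpo2l were lower.

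In sham hearts hispidulin gave 0 of 10 genes past the test and 0 at an unadjusted p under 0.05, beside 0% and 2.46% of all tested genes, and the groups overlapped for all 10, while 5.60% of all tested genes did not overlap. The log2 fold change was above 0 for 9 genes, beside 47.6% of all tested genes, and below 0 for Des. Without the 3 libraries of high atrial marker sums it was above 0 for 6 genes, beside 41.9% of all tested genes, and below 0 for Ankrd1, Xirp1, Csrp3 and Des, and 0 of 10 passed. With the replicate number as a block 0 of 10 passed as well, and 0 genes in all. The largest differences were those of Flnc (0.47, interval -0.57 to 1.50) and Xirp2 (0.39, interval -0.17 to 0.96) on the log2 scale, and in both genes Hispidulin+Sham 3 was the highest of all 6 sham mice. Without the 3 libraries of high atrial marker sums the log2 difference was 0.18 for Flnc and 0.14 for Xirp2.

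Whether hispidulin altered the response to AB was tested as an interaction. None of the 10 genes passed, nor did any at an unadjusted p under 0.05, beside 0% and 2.48% of all tested genes. The estimate was negative, a smaller rise with hispidulin, for 8 of 10 genes, beside 46.6% of all tested genes, and without the 3 libraries of high atrial marker sums for 9 of 10, beside 40.0% of all tested genes. It was furthest from 0 for Synpo2l (-0.67, interval -1.40 to 0.06, unadjusted p = 0.0687, adjusted p = 1.000, limma), followed by Fhl1 (-0.60, interval -1.37 to 0.17) and Xirp2 (-0.59, interval -1.38 to 0.21). For Csrp3 it was 0.00, with an interval of -0.36 to 0.36.

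Levels differed by more than an order of magnitude among the 10 genes, on the scale of FPKM, which is corrected for transcript length. In DMSO+Sham Csrp3 (1439 ± 109.6 FPKM, SD, n = 3) and Des (1084 ± 173) were highest, followed by Ankrd1 (679.8 ± 258) and Ldb3 (537 ± 62.5), whose ranges overlapped each other. Nrap (159.7 ± 7.06) stood apart from both its neighbours in this order. Fhl1 (82.2 ± 13.4), Xirp1 (73.9 ± 41.3), Synpo2l (54.2 ± 16.3), Flnc (53.7 ± 13.2) and Xirp2 (37.9 ± 2.35) were lowest, and each of these 5 overlapped the next in the order except Flnc and Xirp2. In DMSO+AB Ankrd1 was first by mean, at 2592 ± 848 FPKM, overlapping Csrp3 at 2179 ± 207. Synpo2l, at 243 ± 23.3 FPKM, then stood between Fhl1 (272 ± 33.2) and Xirp1 (216 ± 157).

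The genes did not rank the banded mice alike. Xirp1, Flnc, Fhl1, Nrap and Csrp3 were highest in DMSO+AB 1 among the 3 DMSO+AB mice, Ankrd1 and Xirp2 in DMSO+AB 2, and Des, Ldb3 and Synpo2l in DMSO+AB 3. In DMSO+AB 1 Ankrd1 was at 1969 FPKM, its lowest banded value with DMSO, whereas Flnc was at 315 FPKM. In DMSO+AB 2 Ankrd1 was at 3558 FPKM and Flnc at 93.3 FPKM. Over all 12 mice the 45 pairs of genes all had a positive Pearson coefficient of log2(FPKM + 1), from 0.19 for Xirp1 and Ldb3 to 0.95 for Xirp2 and Csrp3 with a median of 0.81, but this describes mice that share the contrast of AB and sham as well as libraries.

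With each group's mean taken away, the median coefficient over the 45 pairs was 0.26, and 30 pairs were positive. Xirp1 and Flnc (0.87), Flnc and Nrap (0.85), Xirp1 and Fhl1 (0.85) and Flnc and Fhl1 (0.81) varied together within groups, whereas Ankrd1 and Flnc had a coefficient of -0.24. Ldb3 had negative coefficients with 7 of the other 9 genes, down to -0.65 with Csrp3. These values describe 12 libraries with 3 in each group, in which genes share library and normalization, and were not tested.

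**Figure D4:**
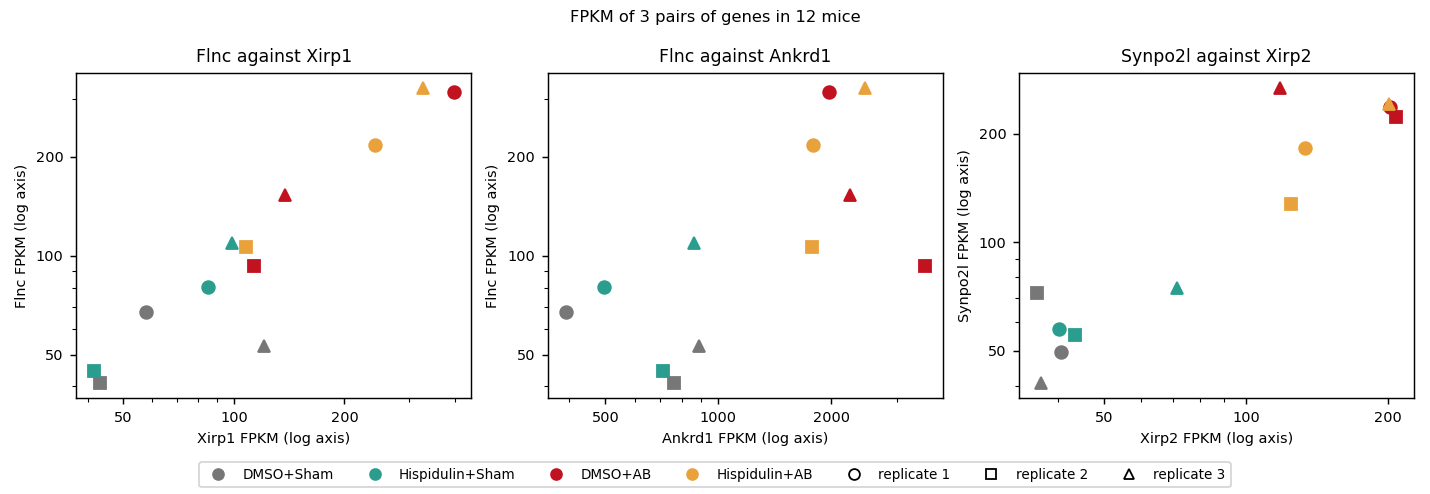
FPKM of 3 pairs of genes in the 12 mice, on log axes, with groups by colour and replicates by symbol. Flnc follows Xirp1 within the groups, with DMSO+AB 1 (396 and 315 FPKM) and Hispidulin+AB 3 (327 and 324 FPKM) at the top right, whereas DMSO+AB 2 is highest for Ankrd1 (3558 FPKM) but lowest of the AB mice for Flnc (93.3 FPKM). Synpo2l against Xirp2 separates the 6 AB mice from the 6 sham mice on both axes.

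Other genes of the Z-disc, its filaments and its regulators were read from lists that do not include the 10 genes. In DMSO+AB against DMSO+Sham both further muscle ankyrin repeat genes were higher. Ankrd2, a relative of Ankrd1 known from slow skeletal muscle, was at 0.65, 0.5 and 1.34 FPKM in DMSO+Sham and at 15.7, 4.59 and 8.68 FPKM in DMSO+AB (log2 fold change 2.43, SE 0.46, adjusted p = 0.0153, limma). Of the sham libraries only DMSO+Sham 3 and Hispidulin+Sham 3 (1.36 FPKM) reached an FPKM of 1. Ankrd2 thus met the filter only through the AB mice, where it is high, and its test is no independent support. Ankrd23, the third member of the family, was at 166, 246 and 184 FPKM and, after AB, at 393, 529.6 and 619 FPKM (log2 fold change 1.36, SE 0.17, adjusted p = 0.00376). Ankrd1 and Ankrd23 were thus called higher with DMSO, beside 2.50% of all tested genes, and their groups did not overlap, beside 7.18%. Ankrd2 is left out of this count because of how it met the filter.

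Of 17 tested Z-disc anchors and assembly proteins, among them alpha-actinin 2, telethonin, titin and myozenin 2, 2 rose and none fell, beside 2.50% of all tested genes called higher and 5.21% called in either direction, with a median log2 fold change of 0.26. The 2 were the small heat-shock proteins Hspb7 (0.72, adjusted p = 0.00647), which binds filamin C, and Hspb8 (0.67, adjusted p = 0.0232), a partner of Bag3 in the removal of damaged filamin. Of 11 LIM-domain and PDZ-LIM genes, 3 rose and none fell (median 0.41): Csrp2 (1.37, adjusted p = 0.0160), a relative of Csrp3 known from smooth muscle, Pdlim1 (0.75, adjusted p = 0.0333) and Fhl3 (0.63, adjusted p = 0.0438).

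Against the same 2.50% of all tested genes called higher, 2 of 9 further filamin and intermediate filament genes rose, Vim (1.02, adjusted p = 0.0378), which encodes vimentin of non-muscle cells, and Lmna (0.57, adjusted p = 0.0296), which encodes the nuclear lamins A and C. None of 12 genes of the costamere and integrin link passed the test (median 0.04). Their largest differences were those of Tln1, which encodes talin 1 (0.39, adjusted p = 0.0898), and Sgca, which encodes alpha-sarcoglycan (-0.39, adjusted p = 0.0653). Of 14 genes for regulators of stretch-responsive transcription and their early targets, 1 rose, Ccn2 (1.81, adjusted p = 0.0106), a matricellular target of YAP and TEAD, beside 2.50% of all tested genes called higher and 5.21% in either direction, and the median of the list was 0.02. In the other 3 comparisons of 2 groups no gene of these lists passed. At an unadjusted p under 0.05 in Hispidulin+AB against Hispidulin+Sham, 7 of 17 Z-disc anchors, 2 of 2 ankyrin repeat genes, 2 of 11 LIM genes, 1 of 9 filament genes, 0 of 12 costamere genes and 3 of 14 regulators did, against 7.26% of all tested genes. The ankyrin repeat genes include Ankrd2, which met the filter only through the AB mice. In Hispidulin+AB against DMSO+AB this held for 1 of 11 LIM genes (Fhl3, log2 fold change -0.58), 1 of 2 ankyrin repeat genes (Ankrd23, -0.47) and 1 of 9 filament genes (Lmna, -0.34), and for none of the other 3 lists, against 3.10% of all tested genes. The adjusted p was 0.9959 for each of them. In Hispidulin+Sham against DMSO+Sham it held for 1 of 11 LIM genes (Lims2, 0.40) and 1 of 12 costamere genes (Sgca, -0.26), and for none of the other 4 lists, against 2.46% of all tested genes. Fhl3, Ankrd23, Lmna, Lims2 and Sgca were named in these comparisons after their values were seen.

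**Figure D5:**
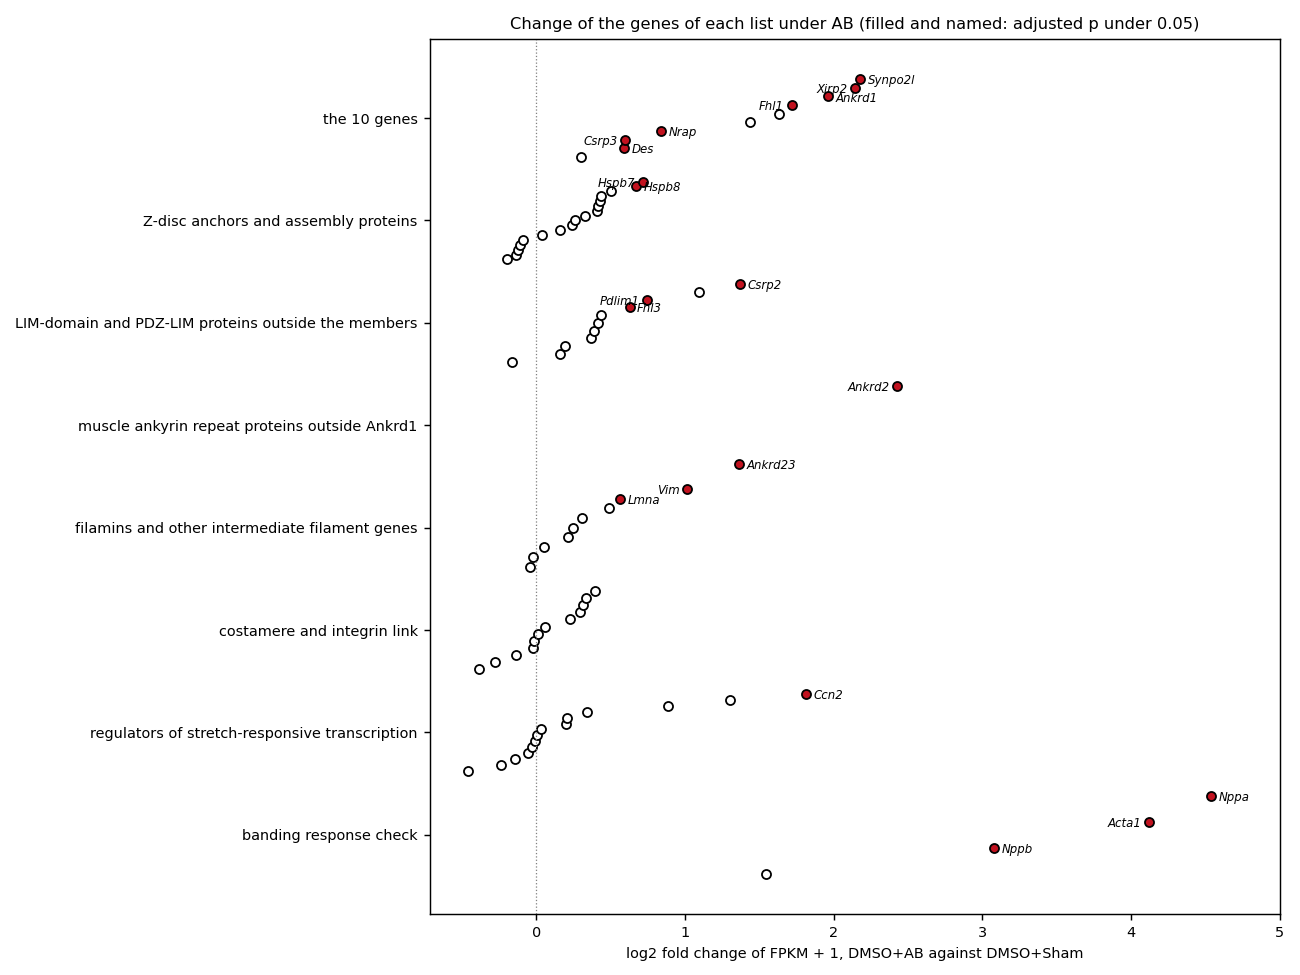
Log2 fold change of FPKM + 1 in DMSO+AB against DMSO+Sham for each tested gene of the 10 genes and of 7 further lists, spread vertically within a list in order of size. Filled, named points have an adjusted p under 0.05 (limma), 7 for the 10 genes and 2 of 17 for the Z-disc anchors, and the costamere genes gather around 0 with none filled.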

How the data were processed

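Left ventricular RNA of 12 mice was sequenced by the study with single-end 50-base reads on a BGISEQ-500. The authors deposited FPKM per NCBI Gene identifier, rounded to 0.01. The submitters' processing notes list HISAT2 2.0.4, Bowtie2 2.2.5, RSEM 1.2.12 and DESeq2 1.4.5, and the genome build and annotation are not given in the sources used here. Of the ratios between low values 18.73% lay within 0.1 of a whole number (20% if spread evenly), so reads were not recovered and depth is unknown. Symbols came from RefSeq for 17947 of 18079 genes.

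The 11664 genes that reached an FPKM of 1 in 3 or more of the 12 libraries were tested on log2(FPKM + 1) with limma 3.58.1 in R 4.3.3, with 1 mean per group over all 12 libraries (8 residual degrees of freedom), a mean-variance trend, two-sided moderated tests and Benjamini-Hochberg adjustment over all tested genes. Folds are on the FPKM + 1 scale and understate the change of low genes. Calls were made at an adjusted p under 0.05. The code was tested on simulated data. Nothing says that mice were littermates or processed together. The p-values set each difference against the spread between these mice, pooled over all groups and moderated over genes. Differences in spread between groups are not modelled.

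All 10 genes were named in each comparison of AB with sham and in that of the 2 AB groups, and some of them for the sham groups and the interaction. From each further list those that passed were named (at most 4 by size) or, where none passed, at most 2. The genes and lists were chosen with earlier results of these data known. Replicate numbers were checked by correlating deviations from group means over the tested genes. Same-numbered mice correlated by 0.15 to 0.23 in Hispidulin+AB and Hispidulin+Sham and by 0.13 to 0.33 in Hispidulin+Sham and DMSO+Sham, over 0.1 for every pair, so the block is given for these comparisons. The pairing comes from the replicate numbers of the labels, which name different animals.

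Alternatives were leaving out each library, a pseudocount of 0.1, a minimum FPKM of 5 or none, scaling by median of ratios, quantile normalization, a fit without the trend, library weights, a fit to the compared libraries alone, the replicate block, and the sample number series as a covariate. Leaving out 3 libraries of high atrial marker sums and averaging AB over both injections were added after seeing the data.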

Additional observations from a re-analysis of the deposited data

How the results depend on the processing

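Of the 180 values that alternatives gave for the 10 genes in DMSO+AB against DMSO+Sham, 155 kept their side of the threshold, 21 lost a call, 4 gained one and none changed direction. The gained calls were those of Xirp1 and Flnc with the replicate block and with the contrast averaged over both injections. The 7 genes called became 3 with the compared libraries alone, 4 with the sample number series as a covariate, 4 without the libraries of high atrial marker sums, and 4 to 7 with 1 library left out (4 without DMSO+Sham 1). All genes called there, 608, became 383 without a filter, 1423 with library weights, 11 with the compared libraries alone, 142 with the number series, 20 without the libraries of high atrial marker sums, and 91 (without DMSO+Sham 1) to 1053 (without DMSO+Sham 2) with 1 library left out. It was 954 without DMSO+AB 1, 97 without DMSO+AB 2 and 191 without DMSO+AB 3. The cause was not tested.

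In Hispidulin+AB against Hispidulin+Sham the 0 genes of the 10 became 6 with library weights, 3 with the compared libraries alone, 2 with the replicate block and 0 to 1 with 1 library left out (Synpo2l without Hispidulin+AB 2). Over all genes 0 became 2 without a filter, 2 with median-of-ratios scaling, 3 with quantile normalization, 209 with library weights, 49 with the compared libraries alone, 17 with the block and 0 to 3 with 1 library left out (3 without Hispidulin+AB 2). In Hispidulin+AB against DMSO+AB all genes called were 2 without a filter and 0 to 20 with 1 library left out (20 without DMSO+AB 1), and for the interaction 0 to 3 (3 without DMSO+AB 1).

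Directions turned only in comparisons with no call. In Hispidulin+AB against DMSO+AB, log2 differences without the libraries of high atrial marker sums were -0.53 for Xirp1, -0.53 for Flnc and -0.0003 for Csrp3. Quantile normalization gave -0.0697 for Csrp3 and 0.0249 for Nrap, and library weights 0.0898 for Nrap. With 1 library left out they were -0.19 to 0.70 for Xirp1, -0.17 to 0.71 for Flnc, -0.0533 to 0.10 for Csrp3 and -0.19 to 0.15 for Nrap. In Hispidulin+Sham against DMSO+Sham they were, without the libraries of high atrial marker sums, -0.11 for Ankrd1, -0.17 for Xirp1 and -0.0764 for Csrp3, with the number series -0.27 for Ankrd1 and -0.0275 for Csrp3, and with quantile normalization -0.0422 for Csrp3. With 1 library left out they were -0.29 to 0.30 for Ankrd1, -0.24 to 0.49 for Xirp1, -0.0764 to 0.0858 for Csrp3 and -0.0131 to 0.14 for Ldb3. For the interaction they were, without the libraries of high atrial marker sums, -0.36 for Xirp1, with library weights 0.39 for Flnc, -0.0476 for Csrp3 and 0.0485 for Nrap, with median-of-ratios scaling -0.0087 and with quantile normalization -0.0276 for Csrp3. With 1 library left out they were -0.34 to 0.63 for Xirp1, -0.63 to 0.24 for Flnc, -0.0724 to 0.10 for Csrp3, -0.25 to 0.0094 for Des and -0.27 to 0.0685 for Nrap.

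Same-numbered mice correlated by -0.20 to -0.02 between DMSO+AB and DMSO+Sham, and by -0.18 to 0.30 between the 2 AB groups. In the other 2 comparisons every such pair was positive, and what the replicate numbers stand for is unknown. The replicate block gave 9 of the 10 genes and 640 genes in DMSO+AB against DMSO+Sham, adding Xirp1 and Flnc, and 0 between the 2 AB groups. Beside Hispidulin+AB against Hispidulin+Sham it changed no other count of calls by over 1.5 times. FPKM carry no depth, and with 3 mice a group the intervals of Xirp1 and Flnc are wide.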

Other observations

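For each of the 10 genes the tested gene of most similar pattern was taken by Pearson's r of log2(FPKM + 1) over the 12 libraries, which share the contrast of AB and sham, so these coefficients are descriptions. They were Tnfrsf12a, the receptor of the cytokine TWEAK, for Fhl1 (0.99), Ankrd2 for Nrap (0.99), Hbegf, a growth factor that binds heparin, for Xirp1 (0.98), Myl12a, a myosin regulatory light chain, for Synpo2l (0.98), Emp1 for Ankrd1 (0.97), Klhl40, a muscle protein that stabilises thin filament proteins, for Flnc (0.97), Aopep for Csrp3 (0.96), the chemokine receptor Cxcr6 for Xirp2 (0.96), the clathrin light chain gene Cltb for Des (0.96) and Phospho1 for Ldb3 (0.95). Myl12a has a close paralog with which reads may be shared.

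DMSO+AB 1, in which Xirp1 and Flnc were highest, had the lowest levels of Nppa, the gene of atrial natriuretic peptide, and Acta1, the skeletal muscle alpha-actin, of the 3 DMSO+AB mice. Nppa was at 680.2, 6043 and 5738 FPKM and Acta1 at 2141, 4373 and 8828 FPKM. Ccn1, an early target of YAP and of serum response factor that was picked out after its values were seen, was at 255, 66.2 and 75.9 FPKM in DMSO+AB and at 149.6, 72.8 and 222 FPKM in Hispidulin+AB. Its 3 highest mice, DMSO+AB 1, Hispidulin+AB 3 and Hispidulin+AB 1, were also the 3 highest for Xirp1 and for Flnc. In the same list of regulators and early targets, Egr1 had the same 3 highest mice. Ccn2 did not, and was highest in DMSO+AB 2, at 314 FPKM. What these mice share was not tested.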
